A study of Mus musculus with 17 samples.

Results

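The genes described here are 43 genes of cell division in AB12 tumors, 28 that act in mitosis and 15 that act in DNA replication, out of 55450 genes in the count table. They were taken by name, as the rows whose Ensembl gene ID carries the listed symbol in the Gencode vM21 annotation. Each symbol matched 1 row. The names were listed with earlier results of these data known. AB12 is a mouse malignant mesothelioma cell line. In all 17 mice, BALB/c females of 8 weeks, 100000 AB12 cells were injected into the peritoneum, and whole tumor nodules were taken, so that tumor cells, immune cells and stroma were sequenced together. Untreated tumors were collected 6, 10 and 14 days after injection, called d6 (3 tumors), d10 (5 tumors) and d14 (3 tumors). Tumors of mice given the anti CTLA-4 blocking antibody clone 9D9 at 200 µg per injection into the peritoneum were collected on d10 (n = 3) and d14 (n = 3), and these are called treated below. The labels give a protocol of 4 injections, 2 per week over 2 weeks, but the study's text describes the treated d14 tumors as given early treatment, which is 2 injections, on d6 and d10. How many injections the treated d10 mice had received is not given in the sources used here. The labels name no control antibody for the untreated mice, and by the study's histology necrotic foci were present in d14 tumors. Each library is from another mouse, so the spread between replicates is that between tumors.

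A dividing cell copies its DNA in S phase and parts the copies in mitosis. For replication, Cdc6 loads the MCM helicase (Mcm2 to Mcm7) onto origins in G1, Cdc45 and the GINS complex complete the helicase, Pcna clamps the polymerase to the fork, and Rrm2 and Tyms make nucleotides. Cyclin E (Ccne1) and the E2F factors, of which E2f1 is an activator, start this program. Entry into mitosis needs Cdk1 bound to a B-type cyclin, and exit needs the anaphase-promoting complex with its activator Cdc20 and its E2 enzyme Ube2c. Mitotic genes peak in G2 and mitosis and are controlled by FoxM1, B-Myb and the DREAM complex through CHR elements and CCAAT boxes, whereas many replication genes are E2F targets. Messages of this kind are low in resting cells, and in bulk tissue a smaller share of dividing cells and less of the message in each dividing cell cannot be told apart.

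The letters of these elements were searched for in the promoters of these genes. RefSeq promoter windows on GRCm38.p6, from 250 bases before to 50 bases after a start, were found for 36 of the 43 genes (38 windows, since some genes have more than 1), and none for Aurkb, Ccna2, Foxm1, Gins2, Kif20a, Mcm4 and Tpx2. Both strands were searched for 3 motifs. The letters of a CHR were TTTGAA in one form and TTTAAA in the other, and a CCAAT box was searched by the letters of its name. An E2F site was searched as TTTGGCGC and TTTCCCGC, each with or without its leading T, and as TTTGCCGC and TTTCGCGC, and such a match can overlap a CCAAT box. CHR letters stood in 22 of 25 mitotic windows (88.0%), in 5 of 13 replication windows (38.5%) and in 27.6% of all 32851 windows. E2F letters stood in 3 of the mitotic windows (12%), in 6 of the replication windows (46.2%) and in 7.44% of all. CCAAT was frequent in both groups, in 84.0% of the mitotic and 69.2% of the replication windows, against 37.4% of all. The 6 stretches below are the last 150 bases before the RefSeq start, 5′ to 3′ along the gene, with CHR and E2F letters in capitals. That start can differ from the Gencode vM21 gene that was counted. There Cdc6 begins at 98907801, so its stretch lies inside the gene, and Ccnb1 begins at 100786570, within its stretch. They show 4 mitotic genes with CHR letters and 2 replication genes with E2F letters. Of these 6, all but Cdc6 were lower in treated than in untreated d14 tumors. So were 27 of 27 mitotic genes tested, 4 of 15 replication genes and 14.8% of all genes. The 6 therefore do not stand for their groups, and a link of the letters to these changes was not tested.
Cdkn3, chr14:46760391-46760540, plus strand: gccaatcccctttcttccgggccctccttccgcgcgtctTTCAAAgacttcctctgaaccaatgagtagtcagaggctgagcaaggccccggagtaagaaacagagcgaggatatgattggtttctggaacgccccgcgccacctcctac
Ccnb1, chr13:100786487-100786636, minus strand: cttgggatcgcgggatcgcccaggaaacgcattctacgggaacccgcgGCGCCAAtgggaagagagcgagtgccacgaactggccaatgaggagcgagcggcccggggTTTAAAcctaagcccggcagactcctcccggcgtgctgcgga
Cdk1, chr10:69352913-69353062, minus strand: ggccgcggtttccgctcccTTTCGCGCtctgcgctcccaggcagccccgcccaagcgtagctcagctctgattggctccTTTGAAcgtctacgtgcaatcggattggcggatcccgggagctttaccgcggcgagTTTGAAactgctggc
Cdc20, chr4:118437344-118437493, minus strand: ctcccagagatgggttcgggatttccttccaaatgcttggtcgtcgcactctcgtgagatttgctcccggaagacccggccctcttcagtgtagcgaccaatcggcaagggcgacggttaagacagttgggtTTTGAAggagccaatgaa
Mcm6, chr1:128359706-128359855, minus strand: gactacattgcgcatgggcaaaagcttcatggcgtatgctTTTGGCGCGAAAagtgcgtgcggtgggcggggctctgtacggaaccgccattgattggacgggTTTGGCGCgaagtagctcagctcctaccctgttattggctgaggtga
Cdc6, chr11:98908001-98908150, plus strand: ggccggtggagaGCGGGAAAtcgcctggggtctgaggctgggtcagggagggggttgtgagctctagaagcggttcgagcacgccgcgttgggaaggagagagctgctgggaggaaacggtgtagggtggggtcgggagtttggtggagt
Cdk1 holds CHR letters 15 and 71 bases before its start as well as E2F letters 131 bases before it, so the letters do not part the groups cleanly. In Cdc20 the CHR begins 18 bases before the start and in Ccnb1 42 bases before it. The E2F letters of Ccnb1 overlap a CCAAT box. Mcm6 holds E2F letters around 110 bases and again 47 bases before the start and no CHR in the window searched. These are matches of letters, not measured binding.

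**Figure D1:**
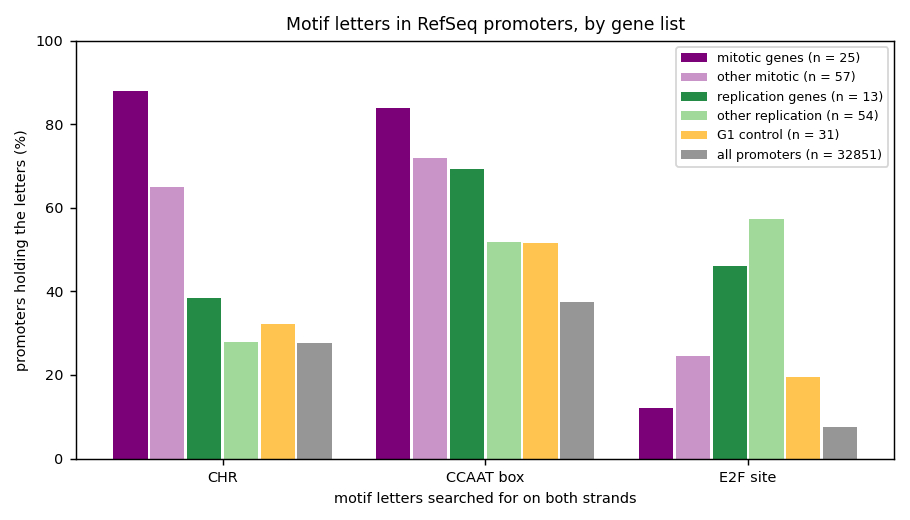
Share of RefSeq promoter windows (vertical axis, %) that hold the letters of each motif (horizontal axis), for the mitotic and replication genes described here, for the other genes of each pathway, for G1 control genes and for all windows (n in the legend). CHR letters are in 88.0% of the mitotic windows and E2F letters in 46.2% of the replication windows, against 27.6% and 7.44% of all windows.

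Other members of both pathways, listed separately, held these letters in a similar order. CHR letters were in 64.9% of 57 windows of other mitotic genes and in 27.8% of 54 windows of other replication genes, and E2F letters in 24.6% and 57.4%.

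Libraries held 46371577 to 96759833 counts (median 72413343), and levels are given as CPM, the counts scaled to a common library total by the TMM method over the 17 libraries. By the levels of 350 small RNAs and pseudogenes, the libraries fell into 3 sets that do not follow the groups: d6 with untreated d10 replicates 1 to 3, untreated d10 replicates 4 and 5 with treated d10, and all d14 libraries. The labels do not say what the sets are. Treated and untreated d14 can be compared within a set, as can treated d10 with untreated d10 replicates 4 and 5 and untreated d10 replicates 1 to 3 with d6, whereas every comparison of d14 with an earlier day crosses sets, and there day and set cannot be told apart. Of 8 mesothelial and mesothelioma markers, mesothelin (Msln) was at 175 to 636 CPM in the 17 libraries and keratin 8 (Krt8) at 592 to 1309 CPM. Krt18 was at 517 to 1083 CPM and Krt19 at 336 to 1113 CPM. The others were lower: Wt1 at 7.71 to 44.2, Upk3b at 1.39 to 20.8, Lrrn4 at 1.33 to 34.6 and Pdpn at most 0.011 CPM. Acinar enzyme genes of the pancreas summed to 3982 CPM in treated d14 replicate 1 and 1339 CPM in replicate 3, against 4.26 CPM in replicate 2 and at most 2.45 CPM in any other library. The comparison of treated with untreated d14 tumors is therefore also given with replicate 2 alone. Other comparisons of treated d14 tumors are given only with replicates 1 and 3 included.

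Nearly all of these genes were well expressed. Per kilobase of exon, the levels in d6 tumors ran from 6.21 ± 0.70 CPM per kb for Cenpf, a large kinetochore protein, to 119 ± 1.66 for Pcna (SD, n = 3). Top2a, the topoisomerase that untangles chromosomes, was the highest mitotic gene at 86.4 ± 3.45 CPM per kb, and Ccnb2 at 71.6 ± 2.97 followed. Replication genes lay between Cdc6 (6.84 ± 0.20 CPM per kb) and Pcna. One gene was at the floor: Kif11, which codes for the kinesin that pushes spindle poles apart, had 1, 1 and 4 counts in untreated d10 replicates 1 and 2 and untreated d14 replicate 1 and 0 in the other 14 libraries, and it entered no test. Why the annotated gene (chr19:37376403-37421859, plus strand, GRCm38) has so few counts was not tested. The 27 remaining mitotic genes and all 15 replication genes were tested in every comparison, after a filter that uses counts over all libraries compared. Exons of Gins2 overlap those of Gse1 on the other strand over 67.3% of their length, those of Kif20a overlap Cdc23 over 29.3%, those of Ube2c overlap Tnnc2 over 22.8%, those of Ccna2 overlap Exosc9 over 12.5% and those of Prc1 overlap Rccd1 over 11.1%. Whether counting used strand is not stated, so the values of these 5 genes are less certain.

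**Figure D2:**
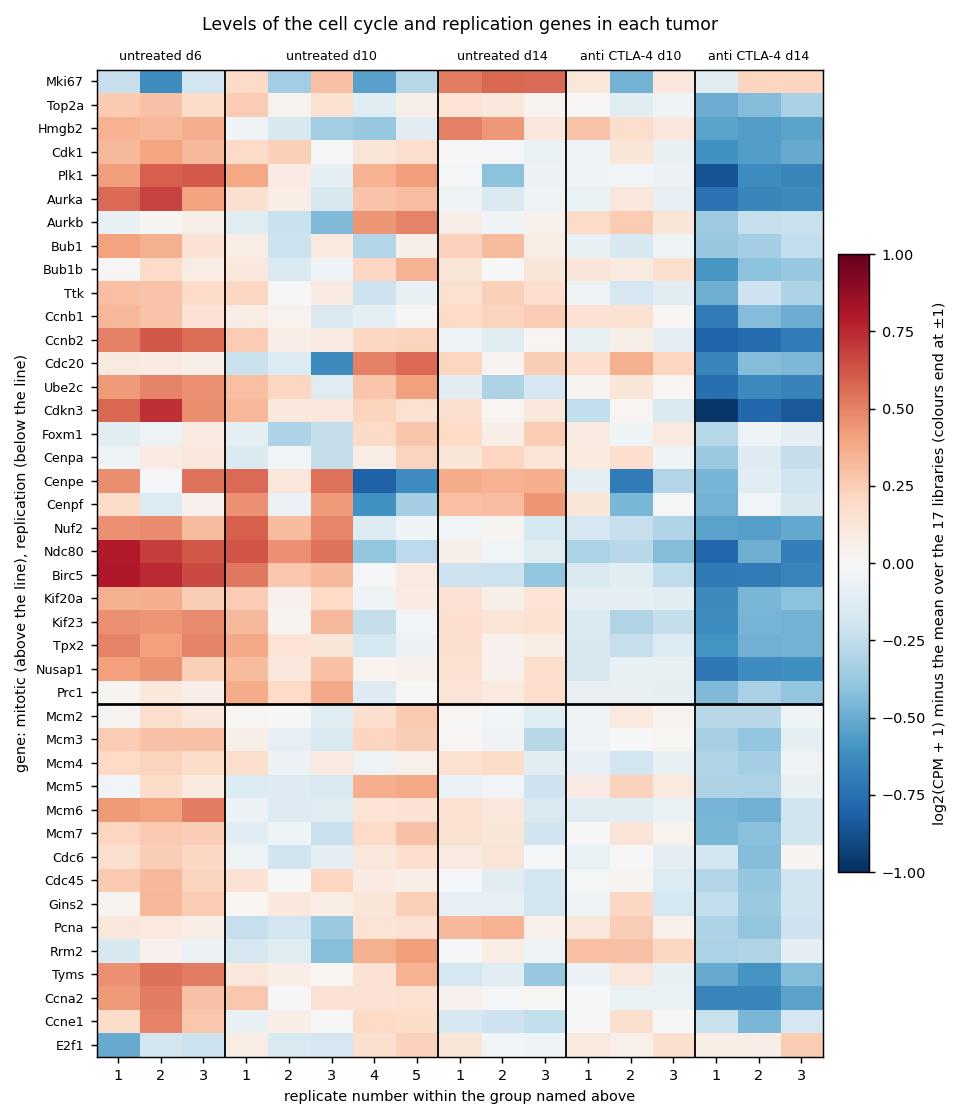
Level of the 42 tested genes (rows) in each of the 17 tumors (columns, by group and replicate), as log2(CPM + 1) minus the gene's mean over all tumors, with red above and blue below that mean. The treated d14 columns are the bluest for most mitotic genes, while Mki67 is highest in untreated d14 and E2f1 lowest in d6.

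Treated and untreated d14 tumors were compared to see how the division program stood after CTLA-4 blockade. All 27 mitotic genes were lower in treated tumors, and none was higher. Of the 15 replication genes 4 were lower and none was higher. The median log2 fold change was -0.53 for the mitotic genes and -0.21 for the replication genes, against -0.0043 over all 18062 genes tested. Changed means a Benjamini-Hochberg adjusted p under 0.05 in edgeR's quasi-likelihood test. By that rule 14.8% of all genes tested were lower and 17.7% higher. The mitotic count lies far above that share and the replication count less so. Because the genes were listed with earlier results of these data known, these counts are a description and no independent support. The falls were small: 1 gene, Cdkn3, fell more than 2-fold, in a comparison where 2.40% of all genes did.

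Cdkn3, a phosphatase that acts on Cdk1 and Cdk2, showed the largest change. It was at 17.4, 15.7 and 16.8 CPM in untreated d14 tumors and at 7.4, 8.57 and 8.24 CPM in treated ones. The 2 groups lay well apart, with a log2 fold change of -1.01 (SE 0.10, edgeR adjusted p = 0.0039). Hmgb2, a chromatin protein of dividing cells, was at 65.8, 62.5 and 49.9 CPM without and at 31.6, 30.9 and 31.5 CPM with treatment. Its fold change was -0.89 (SE 0.11, edgeR adjusted p = 0.0047) and the treated tumors were nearly equal to each other. Nusap1, which bundles spindle microtubules, stood at 102, 94.8 and 104 CPM in untreated and 55.6, 59.4 and 59.6 CPM in treated tumors. It changed by -0.75 (SE 0.07, edgeR adjusted p = 0.0037).

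The cyclins that drive Cdk1 fell with their kinase. Ccnb1 was at 65.4, 66.6 and 67.8 CPM in untreated d14 tumors and at 34.5, 41.9 and 40.0 CPM in treated ones, a log2 fold change of -0.75 (SE 0.08). Ccnb2 changed by -0.69 (SE 0.07). Cdk1 itself was at 120, 118 and 114 CPM and fell to 78.1, 80.8 and 83.8 CPM, a fold change of -0.50 (SE 0.07, edgeR adjusted p = 0.0050). For all 3 genes each treated tumor lay below each untreated one. Genes of exit from mitosis moved the same way, Cdc20 by -0.65 (SE 0.09) and Ube2c by -0.47 (SE 0.08). Among the kinases the changes were -0.57 for Aurka, -0.54 for Plk1, -0.51 for Bub1b, -0.50 for Bub1 and Ttk and -0.27 for Aurkb, which was the smallest of the 27. Kinetochore genes changed by -0.37 (Cenpa) to -0.61 (Ndc80), and genes of the spindle midzone and cytokinesis by -0.49 (Prc1) to -0.75 (Nusap1). Foxm1, which codes for the factor that activates many of these genes, was lower by little, with a fold change of -0.28 (SE 0.09, edgeR adjusted p = 0.048).

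Top2a was at 719, 707 and 671 CPM in untreated and 464, 485 and 522 CPM in treated d14 tumors, and changed by -0.48 (SE 0.07, edgeR adjusted p = 0.0058). Mki67 (chr7:135689784-135716361, minus strand), the gene of the proliferation marker Ki-67, was at 557, 584 and 579 CPM and at 363, 455 and 454 CPM. Its change of -0.40 (SE 0.09, edgeR adjusted p = 0.017) was among the smaller ones, and it missed the threshold without treated d14 replicate 1 (-0.28) and without untreated d14 replicate 1 (-0.42), and also with all 5 groups in 1 fit (-0.44). Every treated tumor lay below every untreated one for all 27 mitotic genes, as it did for 27.7% of all genes tested.

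The replication genes behaved less uniformly. Ccna2, cyclin A2, which acts in both S phase and mitosis, fell most: it was at 189, 182 and 185 CPM in untreated and 116, 116 and 127 CPM in treated tumors, a log2 fold change of -0.60 (SE 0.07, edgeR adjusted p = 0.0043). Pcna fell from 334, 341 and 277 CPM to 216, 203 and 231 CPM, by -0.52 on the log2 scale (SE 0.10, edgeR adjusted p = 0.0089). Mcm6 was at 237, 231 and 191 CPM in untreated and at 154, 152 and 186 CPM in treated tumors, a change of -0.39 (SE 0.11, edgeR adjusted p = 0.031). Mcm7 changed by -0.36 (SE 0.11, edgeR adjusted p = 0.046), and its groups overlapped slightly, with 193 CPM both the lowest untreated and the highest treated value. The count of 4 replication genes was 2 without treated d14 replicate 1 or 2 and without untreated d14 replicate 1 or 2. The remaining 4 MCM genes were at -0.10 to -0.28 and did not pass. Mcm2 was at 155, 150 and 140 CPM in untreated and 126, 126 and 149 CPM in treated tumors, which overlap. Treated replicate 3 was the highest treated tumor for all 6 MCM genes.

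Regulators at the start of S phase did not pass the test. Ccne1 was at 28.8, 27.7 and 26.9 CPM in untreated and 27.5, 23.1 and 28.5 CPM in treated d14 tumors, a fold change of -0.04 (SE 0.09). E2f1 was at 51.7, 46.5 and 46.1 CPM and at 49.9, 49.8 and 56.9 CPM, a change of 0.15 (SE 0.09), the single positive value among the 42 genes, which became -0.02 with offsets by GC content. Cdc6 was at 33.0, 33.9 and 30.4 CPM against 27.1, 22.6 and 31.6 CPM, a change of -0.23 (SE 0.12). For these 3 genes the groups overlapped.

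**Figure D3:**
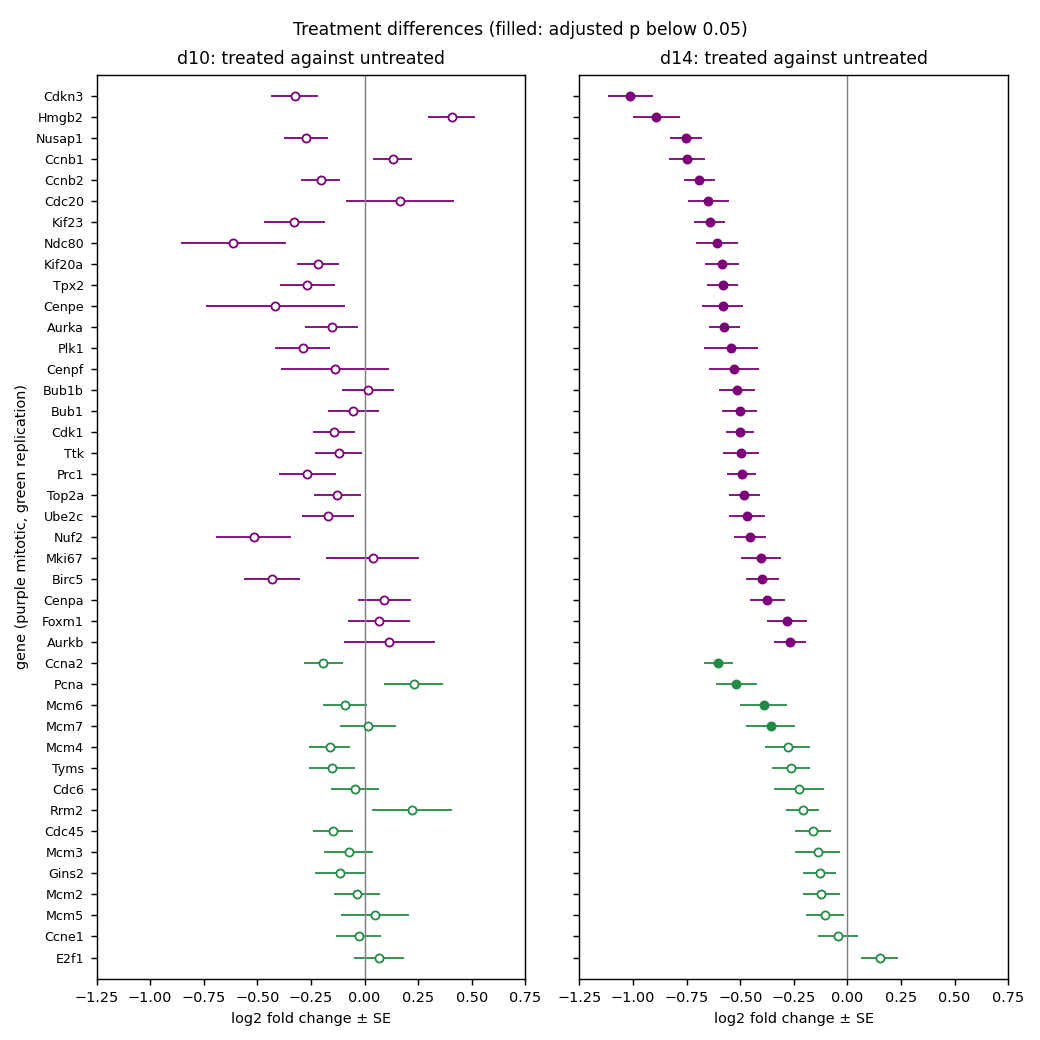
Log2 fold change of treated against untreated tumors (horizontal axis, bars are ± 1 SE) for each gene (vertical axis) on d10 (left) and d14 (right), purple for mitotic and green for replication genes, with filled points for adjusted p below 0.05. On d14 all 27 mitotic points and 4 of 15 replication points are filled and lie left of 0, and on d10 none is filled.

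Over the 17 alternative settings of this comparison every mitotic gene tested stayed below 0, with medians between -0.57 and -0.43. With offsets that remove a trend with GC content, 25 mitotic and 3 replication genes were lower (background 10.1% of genes lower), and medians were -0.43 and -0.16. With treated replicate 2 alone against the 3 untreated tumors no member passed, and only 2 of 19298 genes did, but the medians were -0.47 and -0.27 and all 27 mitotic genes lay below 0. The GC-rich minus AT-rich difference of all protein-coding genes was 0.11 to 0.19 log2 units in treated and -0.38 to -0.15 in untreated d14 libraries. Across the 42 genes the fold change had r = 0.53 with GC content, which became 0.15 with the offsets (genes of shared libraries, given as a description).

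Markers of other cells differed between the same tumors. T cell markers (8 genes, all 8 higher) summed to 286 to 326 CPM in treated and 108 to 198 CPM in untreated d14 tumors, macrophage markers (6 of 7 higher) to 1650 to 2053 against 727 to 1029 CPM, and fibroblast markers (6 of 6 higher) to 3702 to 5651 against 1635 to 2943 CPM. Endothelial markers (2 of 5 higher) summed to 140 to 169 against 85.4 to 104 CPM, and neutrophil markers (2 of 5 higher) to 145 to 193 against 59.2 to 114 CPM. The list of 8 mesothelial and mesothelioma markers summed to 1877 to 2095 CPM in treated and 2763 to 2832 CPM in untreated tumors. Of the 7 tested, 2 were higher, 3 were lower and 2 did not pass. Wt1 was higher by 1.54 (SE 0.28) and Lrrn4 by 2.19 (SE 0.62), while Upk3b was at 1.46 (SE 0.65) and Msln at -0.38 (SE 0.14). The keratins Krt8, Krt18 and Krt19 were lower, with log2 fold changes of -0.37 (SE 0.09), -0.46 (SE 0.08) and -0.77 (SE 0.10). The part of these shifts in the fall of the division genes was not tested. Genes raised by hypoxia (1 of 10 higher, 4 lower) summed to 4592 to 4904 CPM in treated and 5765 to 6654 CPM in untreated d14 tumors.

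On d10 treated and untreated tumors were compared in the same way. No mitotic and no replication gene passed, but in this comparison only 3 of 17258 genes did (0.0174%), while 2329 had an unadjusted p under 0.05, and DESeq2 called 1 mitotic gene. The count depended on the untreated tumors used: against untreated d10 replicates 1 to 3, which are of another library set than the treated tumors, 12 mitotic and 3 replication genes passed, in a comparison that called 29.6% of all genes. The 5 untreated d10 tumors come from 2 library sets, and between replicates 4 and 5 and replicates 1 to 3 themselves 3 mitotic genes were higher and 5 lower and 4 replication genes higher, where 12.4% of all genes were higher and 12.9% lower. Cenpe, the kinesin that carries chromosomes to the spindle equator, was at 167, 122 and 164 CPM in replicates 1 to 3 and at 63.6 and 72.5 CPM in replicates 4 and 5. Cdc20 went the other way, with 86.6, 91.9 and 64.7 CPM and then 144 and 150 CPM. Over the 42 genes this difference within untreated d10 had r = 0.65 with GC content. For such genes the untreated d10 value differed with the library set.

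Within the second set, treated d10 tumors were set against untreated d10 replicates 4 and 5. Again no member passed, with 0.631% of 17125 genes called. The median log2 fold change was -0.13 for the mitotic and -0.19 for the replication genes. The GC-rich minus AT-rich difference was 0.11 to 0.29 log2 units in treated d10 and 0.46 and 0.40 in those untreated libraries. Its part in these values was not tested. Mcm6 was at 198, 198 and 204 CPM in treated d10 tumors and at 235 and 236 CPM in those 2 untreated ones, a change of -0.24 (SE 0.08). Plk1, the kinase of mitotic entry and spindle formation, was at 80.7, 81.5 and 80.1 CPM against 106 and 112 CPM, a change of -0.44 (SE 0.08). Hmgb2 was at 56.6, 52.4 and 50.1 CPM against 35.2 and 42.6 CPM, a change of 0.44 (SE 0.11). Mcm6, Plk1 and Hmgb2 were named here after their values were seen, and none passed the adjusted test with 2 untreated tumors. Over all 5 untreated d10 tumors, Top2a changed by -0.13 (SE 0.11), Cdk1 by -0.14 (SE 0.10), Ccnb1 by 0.13 (SE 0.09), Mki67 by 0.04 (SE 0.22) and Pcna by 0.23 (SE 0.14).

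Whether the treatment difference itself differed between d14 and d10 was tested as an interaction. It was more negative on d14 for 9 mitotic genes and 2 replication genes and more positive for none, where 5.85% of 18574 genes were more negative and 11.9% more positive. The genes were Hmgb2, Ccnb1, Cdkn3, Bub1b, Ccnb2, Nusap1, Cenpa, Kif20a and Cdk1, with Pcna and Ccna2. Hmgb2 had the largest value, -1.31 (SE 0.16, edgeR adjusted p = 0.0018), with a treatment difference of 0.41 on d10, which did not pass, and of -0.89 on d14. Ccnb1 followed at -0.89 (SE 0.12, edgeR adjusted p = 0.0020), Pcna at -0.76 (SE 0.19) and Cdkn3 at -0.70 (SE 0.15). With untreated d10 replicates 4 and 5 alone, so that the treatment was compared within a set on both days, 18 mitotic genes and 2 replication genes were more negative on d14 (background 10.8%). Within both sets the GC-rich minus AT-rich difference also parted treated from untreated libraries, lower in treated on d10 and higher in treated on d14. Its part in these counts was not tested. With all 5 untreated d10 tumors the mitotic count was 4 without treated d14 replicate 1, and 5 without treated d10 replicate 2 or without untreated d14 replicate 1. MCM genes, Ccne1, E2f1 and Cdc6 had interaction values of -0.39 to 0.07, and none passed.

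**Figure D4:**
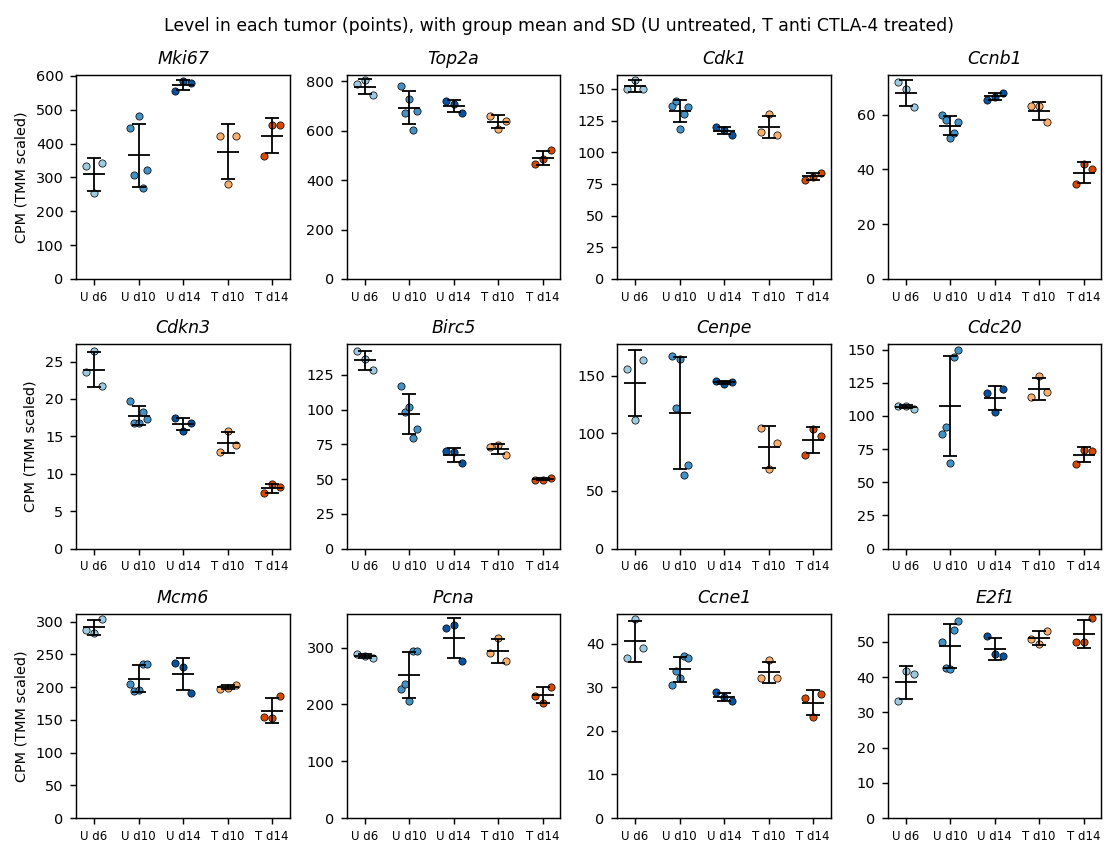
CPM after TMM scaling (vertical axes, from 0) of 12 genes in each tumor (points) by group, with the group mean and SD (bars). Cdkn3, Cdk1, Ccnb1 and Top2a are lowest in treated d14 tumors, Mki67 is highest in untreated d14 tumors (557 to 584 CPM), and Cenpe and Cdc20 fall into 2 clusters in untreated d10.

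Untreated tumors of d6 and d14 were compared next, across library sets. Between d6 and d14, 13 mitotic genes fell and 2 rose, and 7 replication genes fell and 1 rose, where 26.0% of 17172 genes fell and 25.5% rose. None of these changes passed 2-fold, whereas 8.81% of all genes fell by more than that. Birc5, which codes for survivin of the chromosomal passenger complex, fell most: it was at 142, 137 and 128 CPM on d6 and at 70.2, 69.7 and 61.4 CPM on d14, a fold change of -1.0 (SE 0.09, edgeR adjusted p = 6.9e-05). Ndc80 of the outer kinetochore fell by 0.73 and Plk1 by 0.69 on the log2 scale. Cdk1 was at 150, 157 and 150 CPM on d6 and changed by -0.36 (SE 0.07).

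Mki67 moved against its group. It was at 334, 253 and 342 CPM on d6, at 446, 307, 480, 268 and 323 CPM on d10 and at 557, 584 and 579 CPM on d14. Its rise of 0.91 (SE 0.12, edgeR adjusted p = 0.00043) from d6 to d14 was the largest of any member. Over the 17 libraries Mki67 had r = -0.17 with the mean of the other mitotic genes, while Kif20a had 0.99. Cenpf rose too, by 0.33 (SE 0.10), but its value was -0.33 with offsets for both GC content and length. Top2a at -0.14 (SE 0.08) and Ccnb1 at -0.01 (SE 0.08) did not pass.

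Of the 15 replication genes 8 changed over the same days, near the 51.5% of all genes that did, and all but 1 of the 8 fell. Tyms, thymidylate synthase, was at 71.0, 76.1 and 74.2 CPM on d6 and 45.7, 47.6 and 39.4 CPM on d14, a change of -0.72 (SE 0.09, edgeR adjusted p = 0.00039). Ccne1 went from 36.7, 45.7 and 39.0 CPM to 28.8, 27.7 and 26.9 CPM, a change of -0.52 (SE 0.10, edgeR adjusted p = 0.0025). Mcm6 fell by 0.39 and Mcm3 by 0.36 on the log2 scale, whereas Mcm2 (-0.13, SE 0.08), Cdc6 (-0.12, SE 0.09) and Pcna (0.17, SE 0.10) did not pass. E2f1 was the 1 replication gene that rose: from 33.2, 41.8 and 40.8 CPM on d6 to 51.7, 46.5 and 46.1 CPM on d14, by 0.34 (SE 0.11, edgeR adjusted p = 0.025). Like Mki67 it ran against its group, with r = -0.30 to the mean of the other replication genes over the 17 libraries.

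Between d6 and all 5 untreated d10 tumors 4 mitotic genes (Hmgb2, Birc5, Cdkn3 and Ccnb2) and 2 replication genes (Mcm6 and Tyms) were lower and none higher, where 7.03% of 16866 genes were lower and 10.5% higher. Hmgb2 was at 59.1, 58.5 and 59.7 CPM on d6 and at 45, 41.1, 36.0, 35.2 and 42.6 CPM on d10, a change of -0.54 (SE 0.10, edgeR adjusted p = 0.0076). Within the first library set, with untreated d10 replicates 1 to 3, 7 mitotic and 6 replication genes were lower and 1 mitotic gene (Prc1) was higher (background 11.8% lower, 15.2% higher). Mcm6 had the largest fall there, -0.53 (SE 0.08), with 287, 282 and 304 CPM on d6 and 205, 194 and 196 CPM in the 3 d10 tumors. Pcna (-0.33), Mcm7 (-0.34), Mcm3 (-0.31), Cdc6 (-0.30) and Tyms (-0.42) fell with it. The share of replication genes that fell within the set, 6 of 15, was thus above the background and that of mitotic genes, 7 of 27, less so. The mitotic count over all 5 d10 tumors was 1 without d6 replicate 1 or 2, and 2 without d6 replicate 3 or d10 replicate 2. The replication count was 0 without any one of the d6 replicates and 1 without any one of d10 replicates 1 to 4.

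From d10 to d14 in untreated tumors 2 mitotic genes rose (Mki67 by 0.65, SE 0.18, and Hmgb2 by 0.57, SE 0.13), 2 fell (Birc5 by 0.53 and Ube2c by 0.43) and no replication gene passed (background 9.80% of genes higher and 9.87% lower). The mitotic count was 0 without d14 replicate 1 or 2, 1 without d14 replicate 3 or d10 replicate 2, and 2 without d10 replicate 5. One replication gene passed without d10 replicate 3. With d10 replicates 4 and 5 alone, 6 mitotic genes were higher and 7 lower and 5 replication genes were lower, where 16.0% of all genes were higher and 17.2% lower.

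Treated tumors of d10 and d14 were compared as well. Of the mitotic genes 22 were lower on d14 and of the replication genes 10, none of either was higher, and 23.3% of 17791 genes were lower and as many, 23.3%, higher. Cdkn3 was at 12.9, 15.7 and 13.9 CPM on d10, a change of -0.80 (SE 0.11). Hmgb2 changed by -0.75 (SE 0.07) and Cdc20, which was at 114, 130 and 118 CPM on d10 and 64.1, 74.5 and 73.8 CPM on d14, by -0.75 (SE 0.09). Among replication genes Ccna2 changed by -0.56 (SE 0.07), Tyms by -0.50 (SE 0.08) and Rrm2 by -0.49 (SE 0.08). Mki67 (0.19, SE 0.15), Cenpe (0.11, SE 0.15), Mcm2 (-0.22, SE 0.08), Cdc6 (-0.13, SE 0.11) and E2f1 (0.04, SE 0.07) did not pass. This comparison crosses library sets. The replication count was 6 without treated d10 replicate 2 or treated d14 replicate 2.

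Against untreated d10 tumors, treated d14 tumors had 19 mitotic and 8 replication genes lower and none higher (15.3% of 18057 genes lower, 12.4% higher), and Cdkn3 and Plk1 fell more than 2-fold, as 2.49% of genes did. Cdkn3 changed by -1.18 (SE 0.11), Plk1 by -1.01 (SE 0.14), Birc5 by -0.99 (SE 0.12) and Ccna2 by -0.81 (SE 0.09). The replication count was 4 without treated d14 replicate 1 and 2 without treated d14 replicate 2. This comparison shares its treated tumors with the one against untreated d14 and its untreated tumors with the one on d10, so the 3 are not independent.

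The mean over each group of genes puts treated d14 tumors lowest. The mean log2(CPM + 1) of the 27 mitotic genes was 6.84 ± 0.014 on d6, 6.61 ± 0.10 in untreated d10, 6.63 ± 0.031 in untreated d14, 6.48 ± 0.027 in treated d10 and 6.06 ± 0.090 in treated d14 tumors (SD, n = 3, 5, 3, 3 and 3). The mean of the 15 replication genes was 6.86 ± 0.064, 6.71 ± 0.14, 6.63 ± 0.099, 6.69 ± 0.046 and 6.37 ± 0.12 in the same order. Untreated d10 and untreated d14 differ by less than their SD in both means, and treated d14 lies lowest in both, with 6.51 in its highest replication mean against 6.52 in the lowest untreated d14 tumor. The mitotic mean minus the replication mean was -0.39, -0.16 and -0.41 in treated d14 and -0.03, -0.07 and 0.11 in untreated d14 tumors, which do not overlap. In untreated d10 it was 0.11, -0.04 and 0.03 in replicates 1 to 3 and -0.34 and -0.27 in replicates 4 and 5, so a difference of about the same size also lay between the library sets.

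**Figure D5:**
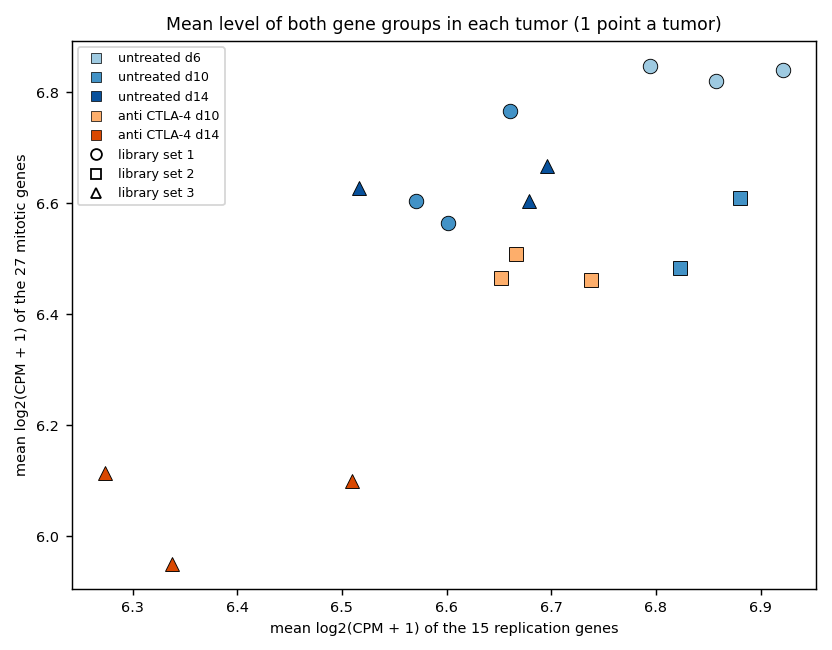
Mean log2(CPM + 1) of the 27 mitotic genes (vertical axis) against that of the 15 replication genes (horizontal axis), 1 point per tumor, with colour for the group and shape for the library set. Treated d14 tumors lie lowest, at mitotic means of 5.95 to 6.12, and untreated d10 squares (set 2) lie right of untreated d10 circles (set 1).

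Both groups of genes moved together over the libraries, as far as 17 libraries of 5 conditions can show: the 2 means had r = 0.78, pairs of mitotic genes a median r of 0.67, pairs of replication genes 0.71 and pairs across the groups 0.57. Among 12337 other protein-coding genes those most like the mitotic mean were Cdca2, Gpsm2, Ncaph, Kif22 and Mad2l1, with r of 0.96 to 0.98. Ncaph is a condensin subunit, Kif22 a kinesin of mitotic chromosomes and Mad2l1 a spindle checkpoint protein. The genes most like the replication mean were Psmd6, Atic, Rfc5, Sae1 and Kars, with r of 0.95 to 0.96, of which Rfc5, a subunit of the clamp loader, was on the list of other replication genes.

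Other genes of both pathways, from lists set apart from the 43, were read beside them. These lists too were drawn up with earlier results of these data known. Of 60 other mitotic genes 59 were tested in treated against untreated d14 tumors: 45 were lower, none was higher, and the median log2 fold change was -0.43. The most negative were Cdc25c, the phosphatase that activates Cdk1, at -0.77 (SE 0.12), the kinesin gene Kif18a at -0.77 (SE 0.10) and Depdc1a at -0.76 (SE 0.09). Of 57 other replication genes 56 were tested, and 14 were lower and 1 was higher, with a median of -0.21. Dut, which keeps uracil out of DNA, was lowest at -0.72 (SE 0.12), followed by Rpa3 at -0.53 (SE 0.09) and Rfc4 at -0.48 (SE 0.10), and the gene that was higher was E2f2 (0.37, SE 0.11). Rpa3 was at -0.03 with offsets for GC content and length. The counts of these lists, like those of the 43 genes, stand against 14.8% of genes lower and 17.7% higher.

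Genes that control G1 were mixed, with 3 of 34 higher, 7 lower and a median of -0.09. Rbl2, the pocket protein p130 of resting cells, was higher by 0.44 (SE 0.13), Btg2 by 0.41 (SE 0.14) and Mdm2 by 0.37 (SE 0.09), while Ccng2 changed by -0.60 (SE 0.12), Wee1, which restrains Cdk1, by -0.56 (SE 0.13), and the Cdk inhibitor gene Cdkn2c by -0.48 (SE 0.09). Of 67 replication-dependent histone genes, 59 averaged below 1 CPM, and of the 24 tested 1 was higher and 1 lower. These histone messages carry no poly(A) tail, and most are at a low level here.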

How the data were processed

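RNA was sequenced from 17 AB12 tumors in 5 groups taken from the sample labels. From KAPA RNA HyperPrep libraries run on 1 of 2 Illumina instruments, the authors aligned reads to GRCm38/mm10 with TopHat2 2.0.14 and deposited whole-number HTSeq counts of uniquely mapped reads per Gencode vM21 gene, without normalization. All columns were used. Which library ran on which instrument, and strand use, are not given in the sources used here. The members and gene lists were chosen with earlier results of these data known.

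Counts were tested with edgeR 4.0.16 in R 4.3.3 (filterByExpr, TMM, quasi-likelihood F test, two-sided), on the groups compared, over all genes, with Benjamini-Hochberg adjustment. Each SE was taken as the size of the log2 change over the root of its F statistic. Levels are CPM, or log2(CPM + 1). The scripts were tested on simulated data. Named were Mki67, Top2a, Cdk1, Ccnb1, Mcm2, Pcna, Ccne1, E2f1 and Cdc6, the 3 largest changes per class and direction past the threshold, and the same from the other lists at d14. Further values were named after they were seen. Alternatives were DESeq2 1.42.0, other filters and scalings, all groups in 1 fit, thinning, a replicate block, leaving out libraries and, chosen after seeing the data, GC offsets and treated d14 replicate 2 alone. The smallest chi-square per gene over 22 replicate pairs was 18.5, so no library was a duplicate. At these depths (46371577 to 96759833 counts) counting error is small beside the spread between tumors.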

Additional observations from a re-analysis of the deposited data

Results flagged for a closer look

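For 11 of the 42 genes tested, the difference between treated and untreated tumors was itself different on d14 and d10, by edgeR's test of the interaction with adjusted p below 0.05. By that rule 5.85% of all 18574 genes were more negative on d14 and 11.9% more positive. The log2 values, d14 minus d10, were -1.31 for Hmgb2, -0.89 for Ccnb1, -0.70 for Cdkn3, -0.54 for Bub1b, -0.50 for Ccnb2, -0.49 for Nusap1, -0.48 for Cenpa, -0.38 for Kif20a and -0.37 for Cdk1 among the mitotic genes, and -0.76 for Pcna and -0.42 for Ccna2 among the replication genes. All are negative. On d10 Hmgb2 was at 0.41 (SE 0.11) and Pcna at 0.23 (SE 0.14), and on d14 at -0.89 and -0.52. In the 5 untreated d10 tumors, the group in which single libraries could be checked, no gene had a tumor that stood apart from the other 4. That check looks for 1 tumor apart, so it cannot show the split between the 2 library sets of this group. Between replicates 4 and 5 and replicates 1 to 3, 8 of 27 mitotic and 4 of 15 replication genes differed. That is near the share over all genes, as 25.3% of 17321 genes differed there.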

How the results depend on the processing

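The fall of the mitotic genes in treated against untreated d14 tumors stayed past the threshold for 22 to 27 genes with every single replicate left out and for 22 to 27 with the other planned settings, and 0 passed with treated d14 replicate 2 alone (0 replication genes too), where 1 tumor stands for its group and is assumed to vary like the others. The replication count, 4, was 2 to 6 with 1 replicate left out and 2 with the replicate block. That block called 21.9% of all genes, against 32.4% in the reported comparison. With treated d14 replicate 2 alone against untreated d14, the medians were -0.47 for the mitotic and -0.27 for the replication genes. Counts with that 1 tumor are not given for the other comparisons. The causes of the moves in these counts were not tested, but fewer tumors entered where replicates were left out.

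With 1 replicate left out, mitotic and replication counts were 1 to 5 and 0 to 2 for untreated d10 against d6, 0 to 5 and 0 to 1 for untreated d14 against d10, 12 to 16 and 6 to 8 for untreated d14 against d6, 0 and 0 for treatment on d10, 19 to 22 and 6 to 11 for treated d14 against treated d10, 16 to 20 and 2 to 9 for treated d14 against untreated d10, and 4 to 12 and 1 to 2 for the interaction. With all replicates these comparisons called, in that order, 17.5%, 19.7%, 51.5%, 0.0174%, 46.6%, 27.7% and 17.7% of all genes. The shares with 1 replicate left out are not given here.

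For untreated d10 against d6 the mitotic count was 7 with DESeq2, 11 with all 5 groups in 1 fit, 2 with all genes counted at least once, 8 with d10 replicates 1 to 3, 18 with replicates 4 and 5 and 7 with the replicate block. These settings called, in that order, 24.0%, 26.6%, 7.90%, 27%, 47.1% and 22.5% of all genes, against 17.5% in the reported comparison. Its replication count was 4 with all groups, 0 with all genes, and 5 and 4 with offsets for GC content and for GC content and length. It was 6 and 4 with d10 replicates 1 to 3 and 4 and 5, and 5 with the block. The 2 offsets called 18.9% and 17.5% of all genes. For untreated d14 against d10 the mitotic count was 7 with all groups, 2 with GC and length offsets, and 9 and 13 with d10 replicates 1 to 3 and 4 and 5, where 34.7%, 17.1%, 34.0% and 33.2% of all genes were called, against 19.7%. Its replication count was 2 with DESeq2, 4 with all groups, 1 with either offset, 1 and 5 with the d10 parts, and 1 with the block. Of these settings, DESeq2 called 28.6% of all genes, the GC offsets 22.2% and the block 23.5%. Treatment on d10 gave 1 mitotic gene with DESeq2, 12 mitotic and 3 replication genes against d10 replicates 1 to 3, which are of another library set, and 14 and 3 with the block. These 3 settings called 2.74%, 29.6% and 31.5% of all genes tested. The replication count of treated d14 was 6 against treated d10 with library size in place of TMM, where 45.4% of all genes were called. Against untreated d10 it was 4 with library size or with all genes, where 27.8% and 13.6% were called. The reported comparisons called 46.6% and 27.7%. The interaction gave 15 and 6 with d10 replicates 1 to 3, 18 mitotic with replicates 4 and 5, and 14 and 6 with the block, where 35.6%, 24.9% and 33.3% of all genes were called, against 17.7%.

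Same-numbered replicates did not deviate together (r between -0.31 and 0.18 over the comparisons), so the numbers do not pair the tumors, and the block also drops untreated d10 replicates 4 and 5 from the contrast. Cenpf between untreated d6 and d14 turned to -0.33 with GC and length offsets. Of the single-gene values under alternatives, 43 newly passed the threshold and 168 no longer did, with the direction kept. Low counts limit Kif11, most histone genes, Nek2 and Atad2, which had at most 3 counts in any library, and Cdkn1c, which averaged below 1 CPM.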
